A study of Mus musculus with 10 samples.

Results

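The genes described here are the expressed antisense class genes of the pressure-loaded mouse left ventricle, compared between hearts without and with Sirt5. GENCODE release M21 gives this class to long non-coding genes annotated on the strand opposite a protein-coding gene. FPKM (fragments per kilobase, relative to all fragments mapped in a library, and so a level per length) of each transcript was summed per gene, and a gene was taken when its mean over the 10 samples was at least 1 FPKM. Of the 14787 genes and assembled loci in the table, 2956 were of the antisense class, 1650 of these were above 0 in a sample and 56 reached that mean. Leaving out 12 by name (Mhrt, Tug1, Airn and 9 whose symbols end in os with or without a digit) left 44 genes. The members nearest the limit were Gm13563 at 1.03, 0610040B10Rik at 1.03 and Gm19461 at 1.04 FPKM, and the nearest class genes outside it were Gm15445 at 0.959, Gm15265 at 0.946 and Gm4285 at 0.945 FPKM. The genes were thus chosen by their mean level over all 10 samples, of which 6 were wild type. Genotype was not used, but some genes reached the limit only through the wild-type samples. Examples are Gm13111, with means of 0.787 FPKM in knockout and 1.39 FPKM in wild type, and Gm19461, with 0.641 and 1.30 FPKM. The lowest wild-type mean of a member was 1.02 FPKM (Gm15941).

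The series addresses what SIRT5, a deacylase found mainly in mitochondria, does in cardiac hypertrophy. Left ventricular tissue of C57BL/6 mice gave the total RNA, 6 weeks after transverse aortic constriction (TAC), in which the aorta is banded so that the left ventricle works against a higher pressure. The 4 Sirt5 knockout samples are numbered 2, 3, 4 and 5, and the 6 wild-type samples 1, 3, 4, 5, 6 and 7. All samples of both genotypes had TAC, so the values say nothing on an unloaded heart. The design text gives male C57BL/6N mice 5 weeks old, pentobarbital anaesthesia and penicillin after surgery. It calls the knockout conventional and based on CRISPR/Cas9 and, in the same sentence, names a tamoxifen-inducible Cre-ERT2 system, with a daily injection of 1 mg for 10 days that ended 4 weeks before TAC. No promoter is given for the Cre, and which animals received tamoxifen is not stated. Whether each sample is a separate animal is not labelled, and p-values therefore rest on a spread between samples that may be partly technical.

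Antisense transcripts arise in several ways. Many start in the promoter of a coding gene and run away from it on the other strand, because promoters often fire in both directions. Others run across the exons of the coding gene or lie within its introns. Some act on the chromatin, transcription or splicing of their partner and for most no function is known. The best known one in mouse heart muscle is Mhrt, which is transcribed opposite the myosin gene Myh7 and binds the chromatin remodeller Brg1.

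Neither Sirt5 nor any of the 42 coding partners was in the table, which holds long non-coding transcripts, so the targeted gene gave no check of the genotype labels and no antisense level could be set beside that of its partner. Of 28 cell type markers, 3 were in the table: Mhrt of cardiomyocytes, Carmn of smooth muscle and Dnm3os of fibroblasts. Mhrt was above 0 in all 10 samples (0.835 to 5.78 FPKM). Depth, estimated from the values, was 22700000 to 29800000 mapped fragments per library. Knockout sample 5 stood apart: the nuclear RNA Malat1 was at 951 FPKM there and at 58.4 to 81.8 FPKM in the other samples, and Dnm3os at 4.65 FPKM against 0.0839 to 0.827 FPKM. Rmrp, an RNA that every cell needs, was listed at 0 in knockout sample 5 and wild-type samples 3, 5 and 6 and at 824 to 1434 FPKM in the rest, so a 0 in this table may be a failed estimate. For that reason the members with a value of 0 are given by sample, without a mean.

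Most of the 44 genes were weakly expressed. Their means ran from 1.03 to 23.8 FPKM with a median of 1.61, 29 lay below 2 FPKM and 3 reached 10 FPKM. Those 3 were C130080G10Rik (beside Actc1), Gm45670 (in Dhx32) and Gm26782 (beside Tep1). The estimated number of fragments behind a value was a median of 54.0 over the genes, and 9 genes had a median of under 20. Between wild-type samples the coefficient of variation ran from 9.19% for 6330403L08Rik to 115% for Gm44949, with a median of 34.6%. In 8 genes 17 of the 440 values were 0. The heat map of 42 of the 44 genes shows the few high genes at the top of each band and no row in which the genotypes are apart.

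**Figure D1:**
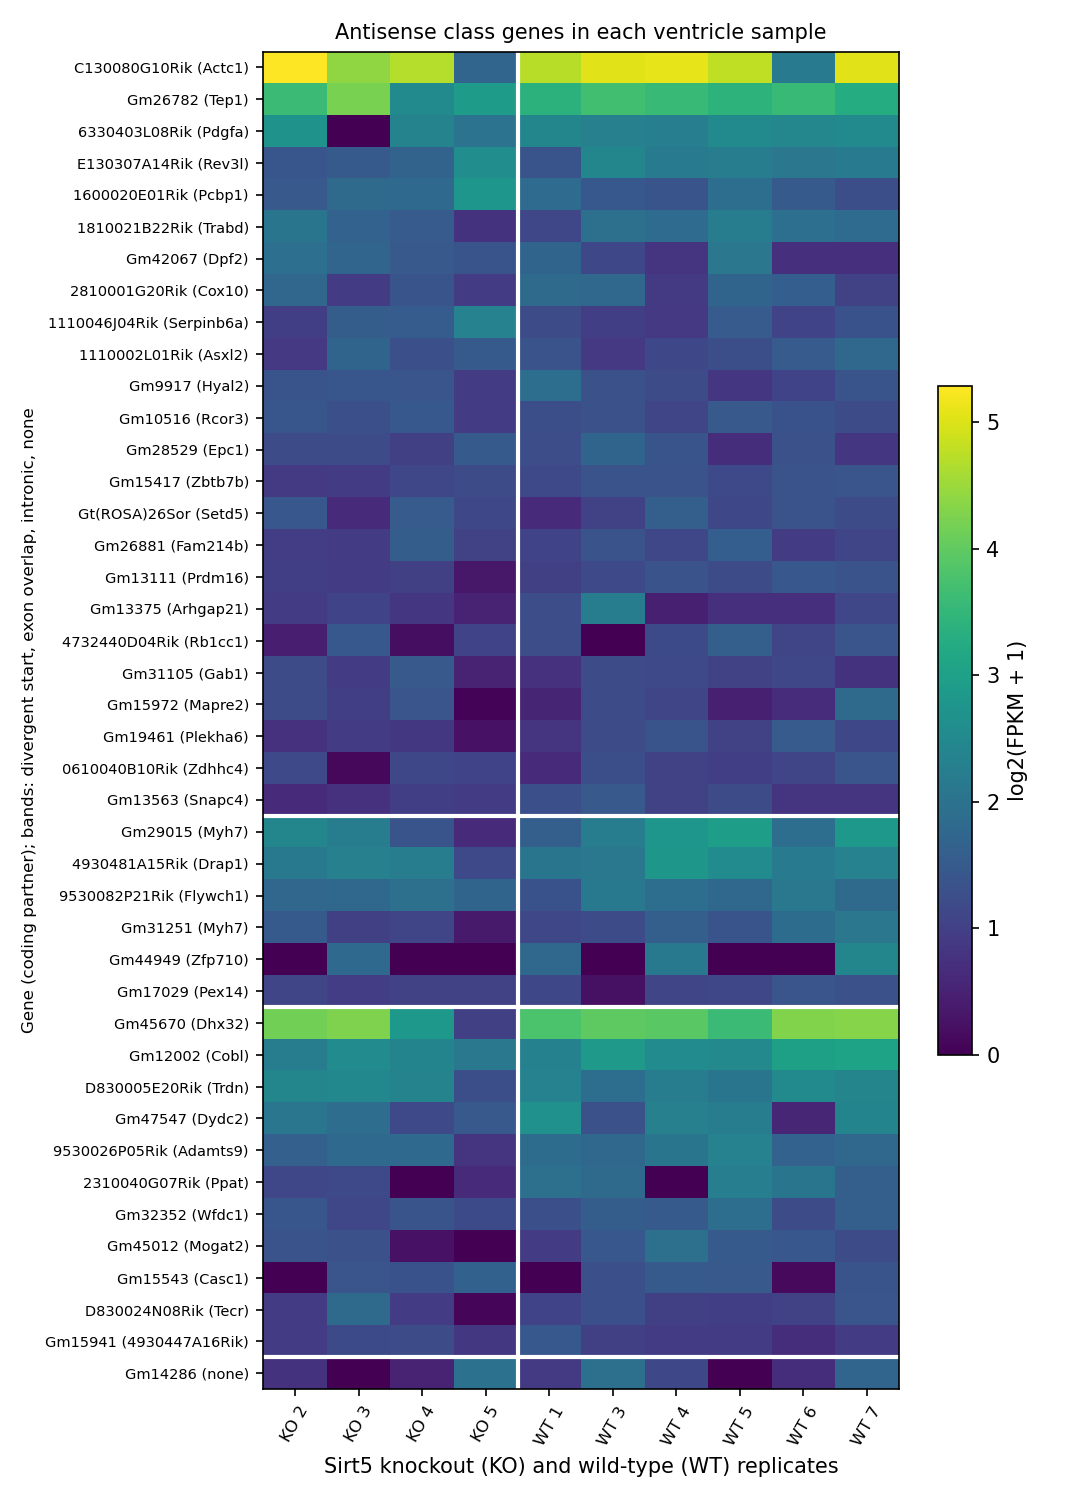
Level of each gene as log2(FPKM + 1) (colour), with knockout samples left of the white line and wild-type samples right of it; the rows are banded from top to bottom as divergent start, exon overlap, intronic and no opposite coding gene, with the coding partner in brackets. C130080G10Rik is bright in all samples but knockout 5 and wild-type 6, and 33 of the 42 genes shown average lower in knockout on this scale.

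By position, 25 of the 44 genes (56.8%) were divergent, with a start within 1000 bases of the start of a coding transcript on the opposite strand. Of these, 15 had starts that point apart and 10 had starts whose transcripts overlap, and 11 started within 100 bases of the coding start. Another 7 genes, not divergent, overlapped exons of a coding gene on the opposite strand (15.9% of the 44). A further 11 (25.0%) overlapped only introns of such a gene, and Gm14286 had no coding gene opposite. Divergent position was assigned first, and most of the divergent genes also overlapped exons of an opposite coding gene. Examples are 6330403L08Rik, with 813 bases in Pdgfa exons, and 1110046J04Rik, with 584 in those of Serpinb6a. Of the 11 intronic genes, 7 lay wholly inside the coding gene and 4, 9530026P05Rik, Gm45012, Gm32352 and Gm15941, reached beyond it on one side. The share of divergent genes was 55.1% among the 439 class genes with a mean of 0.1 to 1 FPKM, 37.6% among the 1155 with a lower mean above 0, and 17.9% among the 1306 listed at 0 in every sample. The members thus lay close to the class genes just below them in level and above the unexpressed ones. Their exons also summed to more, with a median of 2169 bases, against 1273, 1053 and 751.5 bases in those 3 groups.

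**Figure D2:**
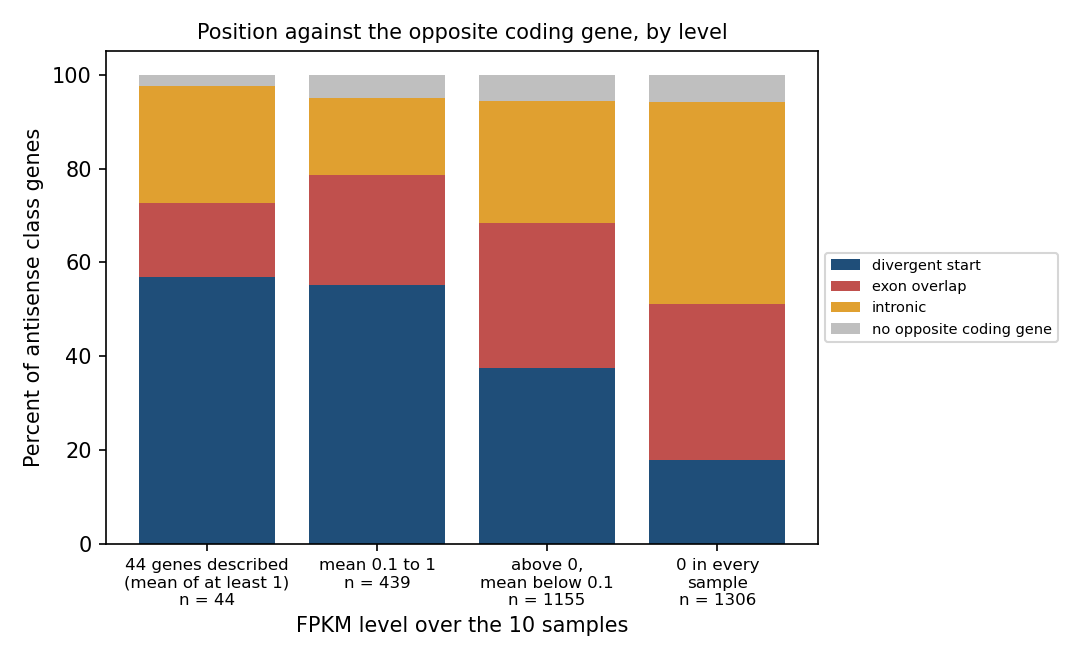
Share in percent of antisense class genes by their position to the coding gene on the opposite strand, for the 44 genes described and for class genes at lower levels (left to right). The divergent share, which includes genes that also overlap coding exons, is 56.8%, 55.1%, 37.6% and 17.9%.

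Promoter sequence was compared where RefSeq (GRCm38.p6) gives a window of 300 bases around the start, from 250 bases before it to 50 after. Of the 44 genes 24 matched by symbol, and 16 of these had a RefSeq start within 250 bases of the GENCODE one. The 11 divergent genes among the 16 had a median CpG content of 0.781, as observed over expected from base composition, and the 5 others 0.321, against 0.384 over all 32851 promoters of the table. TATAAA was found on either strand in 0 of the 16 windows and in 13.6% of all promoters. The letters CCAAT were in 6 of the 16 (37.5%; 37.4% of all promoters), and GGGCGG in 7 (43.8%; 35.7% of all promoters). CCAAT was in 2 of the 11 divergent windows and in 4 of the 5 others. The windows of 3 divergent genes were picked after their letters were seen, to show how far the members differ: C130080G10Rik, the most abundant one, with 2 CG pairs, 1810021B22Rik with 43 and 2810001G20Rik with 22 (CG in capitals).
C130080G10Rik promoter, 5′ to 3′, chr2:114054146-114054445, plus strand, GRCm38: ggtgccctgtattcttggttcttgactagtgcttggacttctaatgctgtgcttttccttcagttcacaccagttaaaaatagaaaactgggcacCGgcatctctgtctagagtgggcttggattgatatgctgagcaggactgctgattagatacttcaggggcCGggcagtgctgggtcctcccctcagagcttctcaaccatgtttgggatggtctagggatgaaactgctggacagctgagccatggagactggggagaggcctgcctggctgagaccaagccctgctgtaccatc
1810021B22Rik promoter, 5′ to 3′, chr15:89075805-89076104, minus strand, GRCm38: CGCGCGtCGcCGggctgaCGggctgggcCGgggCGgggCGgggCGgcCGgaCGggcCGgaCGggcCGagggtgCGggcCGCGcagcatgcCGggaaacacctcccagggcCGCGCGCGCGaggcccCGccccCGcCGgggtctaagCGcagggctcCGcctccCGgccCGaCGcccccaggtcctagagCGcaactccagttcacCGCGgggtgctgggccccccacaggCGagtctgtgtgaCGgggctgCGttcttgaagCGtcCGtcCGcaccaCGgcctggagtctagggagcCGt
2810001G20Rik promoter, 5′ to 3′, chr11:64079234-64079533, plus strand, GRCm38: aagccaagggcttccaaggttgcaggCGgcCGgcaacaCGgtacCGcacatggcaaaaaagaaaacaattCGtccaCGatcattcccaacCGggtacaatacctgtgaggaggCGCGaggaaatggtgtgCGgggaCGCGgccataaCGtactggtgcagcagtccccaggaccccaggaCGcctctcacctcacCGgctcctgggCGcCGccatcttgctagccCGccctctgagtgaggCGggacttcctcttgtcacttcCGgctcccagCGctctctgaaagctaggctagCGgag
The first of these starts 787 bases from Actc1, the second 25 bases from Trabd and the third 18 bases from Cox10. Low CpG content was also found in the window of the divergent Gm19461 (0.0855), so the divergent genes were not alike.

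Between genotypes none of the 44 genes passed the threshold, a limma adjusted p below 0.05 over the 1122 genes and loci with a mean of at least 1 FPKM, of which 0.178% were called. At an unadjusted limma p below 0.05, 5 of the 44 genes were lower in knockout (8.56% of all tested were) and 0 were higher (3.12% of all tested were). The genotypes were apart, with no overlap of their values, in 0 of the 44, where 3.21% of all tested were. By sign alone, 35 of the 44 (79.5%) had a lower mean log2 level in knockout, with 55.5% of all tested below 0, and their median log2 fold change was -0.25 against -0.03 over all tested. These counts include the genes that reached the limit on the mean only through wild type. The shares over all tested rest on the same limit. Fold changes are on the log2(FPKM + 1) scale, knockout minus wild type, and understate those of low genes. In bulk tissue, fewer cells of a type and less RNA per cell cannot be told apart.

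The median was less negative without knockout sample 5. That sample alone held the lowest value of all 10 in 17 of the 44 genes (38.6%) and the highest in 5 (11.4%), and of all 1122 tested it held the lowest in 23.8% and the highest in 21.03%. The summed FPKM of the 44 genes was 138, 127, 105 and 65.4 in the knockout samples 2, 3, 4 and 5, against 121, 144, 144, 136, 110 and 155 in the wild-type samples 1, 3, 4, 5, 6 and 7. Without the most abundant gene, C130080G10Rik, it was 99.5, 107, 79.7 and 63.1 in knockout, against 95.5, 112, 111, 110, 107 and 123 in wild type. So knockout samples 4 and 5 lay below every wild-type sample by either sum, and samples 2 and 3 within their range. With knockout sample 5 left out, 31 of the 44 were lower and the median was -0.12. This shift was no larger than 0.127, the SD within genotypes of the median of the 44 genes per library. That SD includes knockout sample 5. Among samples with Rmrp above 0, the knockouts 2, 3 and 4 and the wild types 1, 4 and 7, 28 were lower and the median was -0.16, and the other samples hold only 1 knockout. Carmn, the smooth muscle marker, had 9.47, 12.5, 9.42 and 9.56 FPKM in the knockout samples 2, 3, 4 and 5, against 12.1, 15.3, 18.0, 12.5, 12.7 and 12.0 FPKM in the wild-type samples 1, 3, 4, 5, 6 and 7. Knockout samples 2, 4 and 5 were thus below every wild-type sample. The part that Carmn, Malat1, Dnm3os or Rmrp has in these values was not tested.

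**Figure D3:**
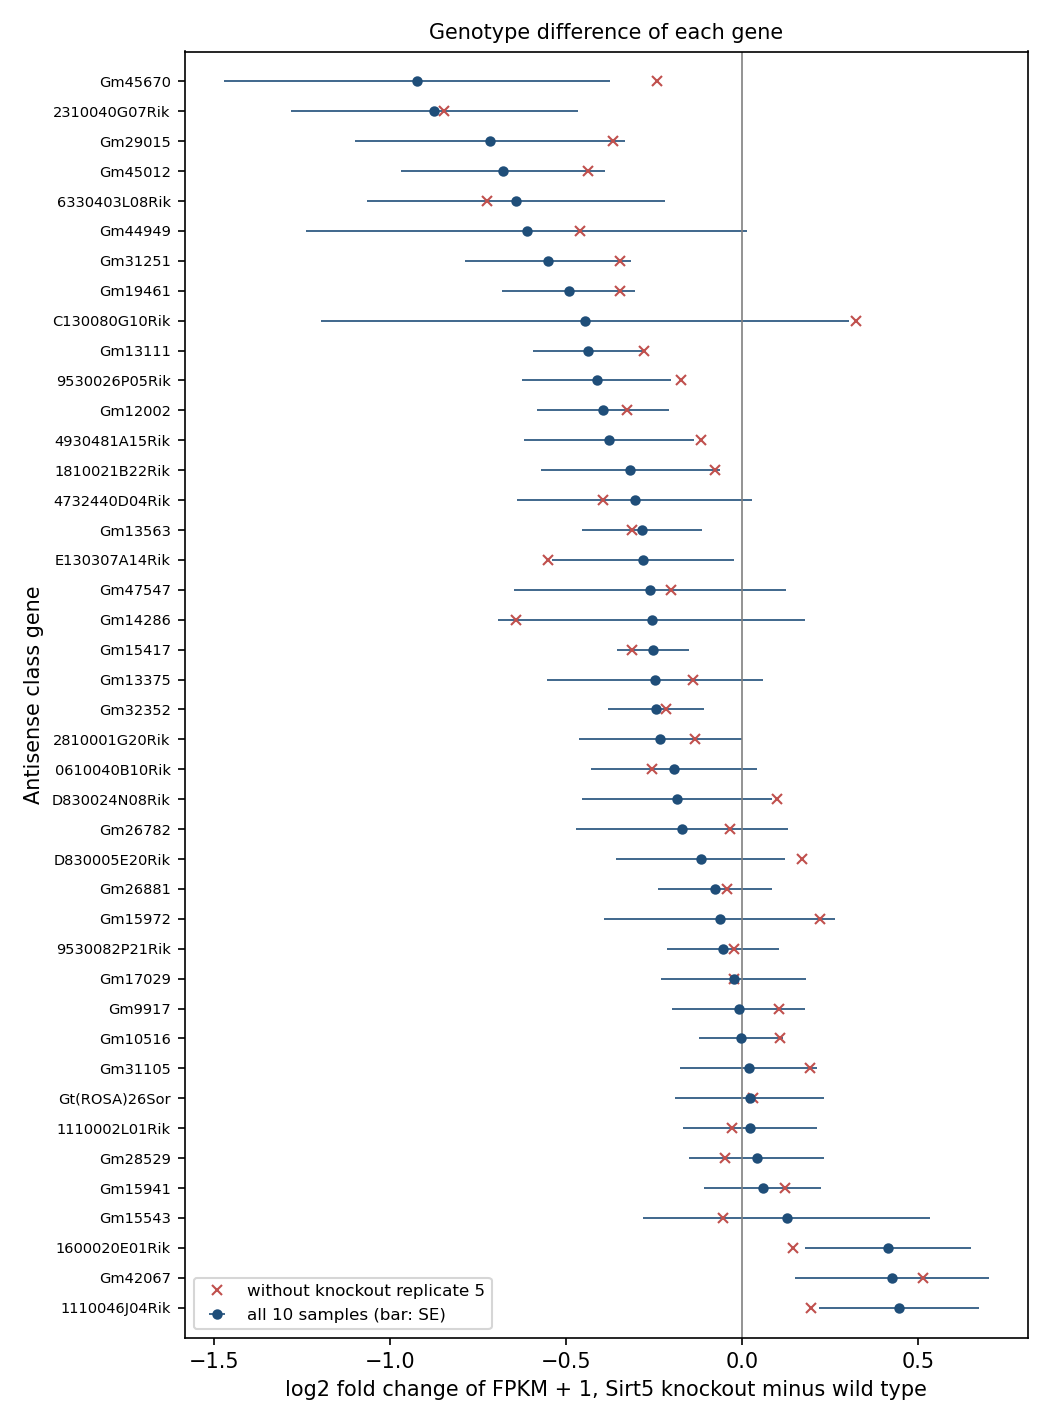
Log2 fold change of FPKM + 1, knockout minus wild type, for 42 of the 44 genes with all 10 samples (dots, bars are the SE) and without knockout sample 5 (crosses). Dots lie below 0 for 33 of these genes and crosses for 30, and C130080G10Rik is at -0.45 with all samples and at 0.32 without that one.

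The 439 class genes with a mean of 0.1 to 1 FPKM did not lean the same way. Of these, 229 were lower and 210 higher in knockout, with a median of -0.01, and 0 were called by limma over the 3294 genes and loci with a mean of at least 0.1 FPKM. Over all 3294 in that fit, 53.2% were lower, with a median of -0.01, and 1 was called. At an unadjusted limma p below 0.05, 19 of the 439 were lower and 12 higher. The share over all 3294 at that p was not taken, so these 2 counts cannot be set against a background. The 12 antisense class genes with a mean of at least 1 FPKM that are left out by name had 8 lower (median -0.06) with all samples and 3 lower (median 0.11) without knockout sample 5. Among the other classes with a mean of at least 1 FPKM, 47 of 80 lincRNA genes were lower (median -0.06), 30 of 80 processed transcripts (median 0.08) and 12 of 20 genes that await experimental evidence (median -0.08). By position, 18 of the 25 divergent genes were lower (median -0.19), 7 of the 7 others with exon overlap (median -0.53) and 9 of the 11 intronic ones (median -0.26). Without knockout sample 5 these were 15 of 25 (-0.04), 7 of 7 (-0.20) and 8 of 11 (-0.20). The differences between positions and classes were not tested.

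The antisense genes at loci of muscle contraction included the most abundant member. Of these, 4 genes are described: C130080G10Rik beside Actc1, the actin of the cardiac thin filament; Gm29015 and Gm31251 opposite Myh7, the slow myosin heavy chain that the loaded mouse heart is known to raise; and D830005E20Rik in Trdn, which anchors the calcium release channel. All 4 were lower in knockout by their fold change (median -0.50), 1 of them at an unadjusted limma p below 0.05, and knockout sample 5 was the lowest of the 10 samples in all 4. Without that sample 2 of the 4 were lower (median -0.09). Over all tested, 55.5% were lower with all samples and 53.9% without that sample, and 8.56% were lower at that p.

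C130080G10Rik (chromosome 2, 114054335 to 114064868, plus strand, GRCm38) was the most abundant member. It had 38.1, 20.2, 25.1 and 2.28 FPKM in the knockout samples 2, 3, 4 and 5, against 25.3, 31.9, 33.2, 26.3, 3.54 and 32.1 FPKM in the wild-type samples 1, 3, 4, 5, 6 and 7. Knockout sample 5 and wild-type sample 6 were both low, at 2.28 and 3.54 FPKM, while the other 8 samples lay between 20.2 and 38.1 FPKM and the genotypes overlapped. The difference was within the spread between samples (log2 fold change -0.45, SE 0.750, limma adjusted p = 0.852), and its sign turned without knockout sample 5 (0.32).

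The low samples were low in 3 of the 5 transcripts. ENSMUST00000150005, the leading one, was at 26.02, 11.9, 18.6 and 0.373 FPKM in knockout, against 17.3, 23.0, 23.8, 17.6, 0.0265 and 20.5 FPKM in wild type, in the same sample order. ENSMUST00000154140 and ENSMUST00000134456, which end in the same terminal exon, were at 0 in knockout sample 5 and at 0.0440 and 0.0881 FPKM in wild-type sample 6, and at 1.45 to 6.51 FPKM and 2.61 to 4.58 FPKM in the other samples. In contrast, ENSMUST00000155185, which leaves that exon early and splices to distal exons, was at 1.45, 1.63, 1.98 and 1.76 FPKM in knockout, against 1.80, 2.02, 1.43, 1.93, 3.21 and 1.73 FPKM in wild type. It was at 1.43 to 3.21 FPKM in all 10 samples, with its highest value in wild-type sample 6, and led the gene in that sample and in knockout sample 5. ENSMUST00000155678 was low throughout (0.00218 to 1.66 FPKM). StringTie shares the reads of overlapping transcripts by estimation, and the reads themselves were not used here.
The first exons of ENSMUST00000150005 (971 bases, 114054396 to 114055366) and ENSMUST00000155185 (55 bases, 114056313 to 114056367) differ too. At their 3′ side these 2 transcripts part after base 114060896 of chromosome 2. This is shown as 40 shared bases in lower case and the next 80 bases in capitals, 5′ to 3′, plus strand of GRCm38 (GENCODE M21).
ENSMUST00000150005, chr2:114060857-114060976: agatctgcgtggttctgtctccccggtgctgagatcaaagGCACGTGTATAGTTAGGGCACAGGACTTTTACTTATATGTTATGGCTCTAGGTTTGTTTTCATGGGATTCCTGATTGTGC
ENSMUST00000155185, spliced, chr2:114060857-114063995: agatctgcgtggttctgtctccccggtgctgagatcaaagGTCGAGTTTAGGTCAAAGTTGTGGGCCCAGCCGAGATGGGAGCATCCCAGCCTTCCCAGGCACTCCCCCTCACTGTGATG
After the shared part the first runs on for 544 bases of the same exon, and the second for 570 bases of distal exons.

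**Figure D4:**
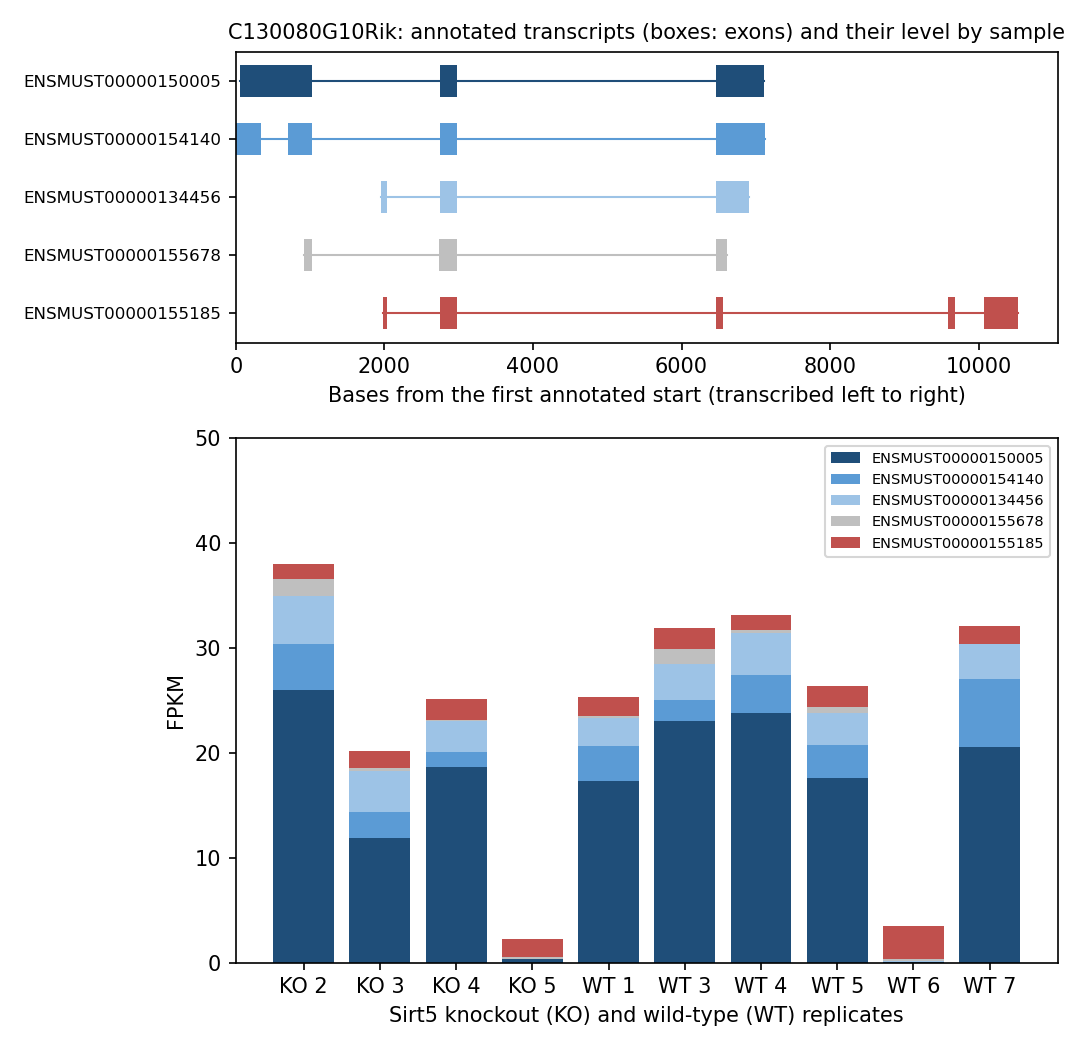
Above, exons (boxes) of the 5 annotated C130080G10Rik transcripts by distance in bases from the first start; below, FPKM of each transcript stacked per sample, knockout left and wild type right. In knockout 5 and wild-type 6 the blue transcripts are near 0 and the red one, ENSMUST00000155185, stays at 1.76 and 3.21 FPKM.

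Opposite Myh7, Gm29015 (chromosome 14, 54973029 to 54973359, plus strand) is a transcript of 207 exonic bases, 142 of them in Myh7 exons, and it lies inside the body of Mhrt on the same strand. It had 4.38, 3.74, 1.59 and 0.539 FPKM in the knockout samples 2, 3, 4 and 5, against 2.03, 3.66, 5.89, 6.74, 2.77 and 6.10 FPKM in the wild-type samples 1, 3, 4, 5, 6 and 7. The lowest values were those of knockout samples 5 and 4, and the genotypes overlapped between 2.03 and 4.38 FPKM (log2 fold change -0.72, SE 0.383, limma adjusted p = 0.517). The median of its estimated fragments was 18.9 per sample. Gm31251 (chromosome 14, 54979393 to 54991601, plus strand), with 523 bases in Myh7 exons, had 1.84, 1.01, 1.16 and 0.311 FPKM in the knockout samples 2, 3, 4 and 5, against 1.19, 1.35, 2.05, 1.61, 2.68 and 3.26 FPKM in the wild-type samples 1, 3, 4, 5, 6 and 7. Here 3 of the 4 knockout samples lay below every wild-type sample and knockout sample 2 did not (log2 fold change -0.55, SE 0.236, limma adjusted p = 0.404, unadjusted 0.0396). Mhrt itself, left out by name, was at 3.09, 2.69, 4.63 and 0.835 FPKM in knockout, against 1.22, 2.71, 3.00, 5.78, 3.62 and 3.19 FPKM in wild type, and was also lowest in knockout sample 5. Reads of Myh7 and of these genes may not have been told apart, since no source used here says if strand was used in counting.

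D830005E20Rik (chromosome 10, 33222345 to 33256418, minus strand) lies in Trdn introns and had 4.35, 4.51, 4.17 and 1.41 FPKM in the knockout samples 2, 3, 4 and 5, against 4.08, 2.76, 3.72, 3.18, 4.74 and 4.30 FPKM in the wild-type samples 1, 3, 4, 5, 6 and 7. It was even across 9 samples, at 2.76 to 4.74 FPKM, and low in knockout sample 5 alone. Its log2 fold change was -0.12 with all samples and 0.17 without that sample (limma adjusted p of 0.885 and 0.821).

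**Figure D5:**
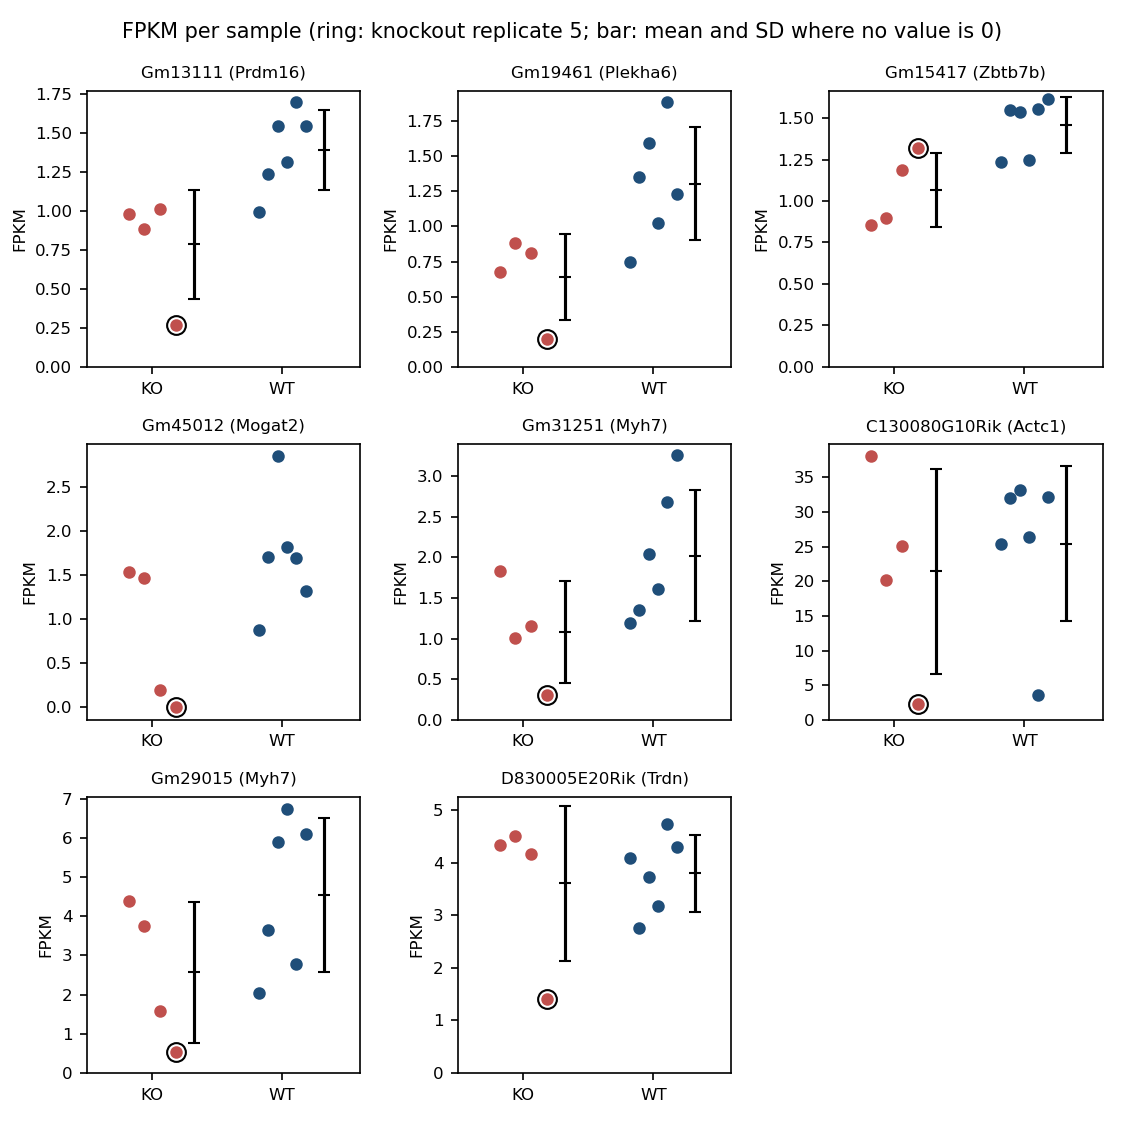
FPKM per sample for the 5 genes at an unadjusted limma p below 0.05 and for 3 others at loci of muscle contraction, knockout left and wild type right, with the coding partner in brackets; bars give the mean and SD where no value is 0, and the ring marks knockout sample 5. The ringed value is the lowest of its gene in every panel but that of Gm15417, where it is the highest knockout value.

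The partners of 11 genes act in transcription or chromatin. Of these 11 genes 7 were lower in knockout, with a median of -0.05, and 2 had an unadjusted limma p below 0.05. Over all tested, 55.5% were lower and 8.56% were lower at that p. Without knockout sample 5, 8 of the 11 were lower (53.9% of all tested). Gm13111 (chromosome 4, 154637576 to 154644724, plus strand) starts 703 bases from Prdm16, a transcription factor of brown fat and of heart muscle. It had 0.983, 0.885, 1.01 and 0.268 FPKM in the knockout samples 2, 3, 4 and 5, against 0.997, 1.24, 1.55, 1.32, 1.70 and 1.55 FPKM in the wild-type samples 1, 3, 4, 5, 6 and 7. Knockout samples 2, 3 and 5 lay below every wild-type sample and knockout sample 4 just above the lowest of them. This was the smallest p among the 44 genes (log2 fold change -0.44, SE 0.157, limma adjusted p = 0.367, unadjusted 0.0180).

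Gm15417 (chromosome 3, 89391850 to 89398779, plus strand) starts 99 bases from Zbtb7b, a zinc finger factor known from T cell development. It had 0.858, 0.899, 1.19 and 1.32 FPKM in the knockout samples 2, 3, 4 and 5, against 1.23, 1.55, 1.54, 1.25, 1.56 and 1.62 FPKM in the wild-type samples 1, 3, 4, 5, 6 and 7. Knockout samples 2, 3 and 4 were below every wild-type sample, and knockout sample 5, at 1.32 FPKM, was the highest of its group (log2 fold change -0.25, SE 0.103, limma adjusted p = 0.404, unadjusted 0.0313). Its estimated fragments had a median of 28.2 per sample.

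The other 9 of these genes did not pass the threshold (limma adjusted p from 0.572 to 0.993). 4930481A15Rik, which ends across exons of Drap1, a subunit of the NC2 repressor, averaged 3.07 ± 1.23 FPKM in knockout and 4.15 ± 1.09 FPKM in wild type (SD, n = 4 and n = 6). 9530082P21Rik, opposite the zinc finger gene Flywch1, averaged 2.48 ± 0.259 FPKM in knockout and 2.67 ± 0.699 FPKM in wild type. Gm42067 starts beside Dpf2, a subunit of BAF chromatin remodellers, and was the member of the group with the largest fold change upwards (0.43), with 2.12 ± 0.549 FPKM in knockout and 1.47 ± 1.08 FPKM in wild type. Its wild-type samples lay between 0.642 and 3.28 FPKM, around all 4 knockout samples. Gm10516 beside Rcor3, of the CoREST corepressors, was among the steadiest, with 1.44 ± 0.363 FPKM in knockout and 1.43 ± 0.211 FPKM in wild type. The genes 1110002L01Rik beside Asxl2, a Polycomb protein, Gm28529 beside Epc1, a subunit of a histone acetyltransferase, and Gt(ROSA)26Sor beside Setd5, the locus widely used to host transgenes, averaged 1.59, 1.37 and 1.33 FPKM in knockout and 1.55, 1.35 and 1.28 FPKM in wild type. Gm13563, 873 bases from Snapc4, a subunit of the complex that starts small nuclear RNA genes, averaged 0.780 ± 0.179 FPKM in knockout and 1.19 ± 0.412 FPKM in wild type.

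Gm44949, a single exon opposite Zfp710, a zinc finger gene, was either listed at 0 or well above it. It had 0, 2.48, 0 and 0 FPKM in the knockout samples 2, 3, 4 and 5, against 2.47, 0, 3.41, 0, 0 and 4.39 FPKM in the wild-type samples 1, 3, 4, 5, 6 and 7. Of its 10 values 6 were 0, in both genotypes, and the other 4 lay between 2.47 and 4.39 FPKM.

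The coding partners of 4 genes handle RNA or DNA, and 3 of the 4 genes averaged lower in knockout by their log2 values (median -0.23). Of all tested 55.5% did. Without knockout sample 5 it was again 3 of the 4. Gm45670 (chromosome 7, 133747624 to 133753038, plus strand), in an intron of the helicase gene Dhx32, had 16.8, 18.1, 6.05 and 1.02 FPKM in the knockout samples 2, 3, 4 and 5, against 12.9, 14.6, 14.2, 11.2, 18.6 and 18.9 FPKM in the wild-type samples 1, 3, 4, 5, 6 and 7. Knockout samples 4 and 5 were below every wild-type sample and knockout samples 2 and 3 within their range. Its log2 fold change was the furthest from 0 of the 44 genes and did not pass the threshold (log2 fold change -0.92, SE 0.548, limma adjusted p = 0.572, unadjusted 0.120). Without knockout sample 5 it moved to -0.24.

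Gm26782 (chromosome 14, 50870324 to 50880603, plus strand) starts 176 bases from Tep1, which codes for a telomerase-associated protein. It had 11.1, 17.6, 4.77 and 6.47 FPKM in the knockout samples 2, 3, 4 and 5, against 9.47, 12.0, 10.8, 9.62, 10.7 and 8.70 FPKM in the wild-type samples 1, 3, 4, 5, 6 and 7. Wild-type samples stayed between 8.70 and 12.0 FPKM, while the knockout samples held both the highest and the 2 lowest values (log2 fold change -0.17, SE 0.302, limma adjusted p = 0.855). Its 7 transcripts took turns. ENSMUST00000228254 was at 7.04, 7.41, 0 and 0.122 FPKM in knockout, against 6.97, 8.48, 6.10, 6.44, 7.12 and 0 FPKM in wild type, thus near 0 in knockout samples 4 and 5 and wild-type sample 7. ENSMUST00000181482 was above 1 FPKM in those 3 samples and in wild-type sample 4 and at most 0.176 FPKM in the other 6.

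E130307A14Rik, with 13 transcripts in the table, starts 111 bases from Rev3l, the catalytic subunit of the translesion polymerase zeta. It does not overlap Rev3l but has 293 bases in exons of Traf3ip2 on the opposite strand. It had 1.67, 1.81, 2.21 and 5.06 FPKM in the knockout samples 2, 3, 4 and 5, against 1.60, 4.35, 3.53, 3.69, 3.26 and 3.53 FPKM in the wild-type samples 1, 3, 4, 5, 6 and 7. Knockout sample 5 was the highest of all 10, and the other 3 knockout samples lay with wild-type sample 1 below the rest (log2 fold change -0.28, SE 0.258, limma adjusted p = 0.684). Without knockout sample 5 the log2 fold change was -0.55. 1600020E01Rik, 50 bases from Pcbp1, which binds poly(C) RNA, was again highest in knockout sample 5 (5.87 FPKM) and averaged 3.17 ± 1.83 FPKM in knockout and 1.99 ± 0.560 FPKM in wild type (SD, n = 4 and n = 6), with a log2 fold change of 0.41 that moved to 0.14 without that sample.

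Genes at loci of metabolism and organelles that are described numbered 7, and 7 of 7 had a negative fold change (median -0.23), with 1 at an unadjusted limma p below 0.05. Over all tested, 55.5% were lower and 8.56% were lower at that p. Without knockout sample 5, 6 of the 7 were lower (53.9% of all tested). The gene at that p was Gm45012 (chromosome 7, 99202366 to 99227080, plus strand), which reaches into an intron of Mogat2, an enzyme of triglyceride synthesis. It had 1.54, 1.47, 0.195 and 0 FPKM in the knockout samples 2, 3, 4 and 5, against 0.878, 1.71, 2.85, 1.82, 1.69 and 1.32 FPKM in the wild-type samples 1, 3, 4, 5, 6 and 7. Knockout samples 4 and 5 were below every wild-type sample, and knockout samples 2 and 3 within their range (log2 fold change -0.68, SE 0.290, limma adjusted p = 0.404, unadjusted 0.0392, with the listed 0 in the fit). Without knockout sample 5 the log2 fold change was -0.44.

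2310040G07Rik, in introns of Ppat, which opens purine synthesis, had the largest fold change of the group. Its values were 1.19, 1.26, 0 and 0.575 FPKM in the knockout samples 2, 3, 4 and 5, against 2.86, 2.53, 0, 3.80, 3.13 and 2.05 FPKM in the wild-type samples 1, 3, 4, 5, 6 and 7. Apart from wild-type sample 4, listed at 0 like knockout sample 4, every wild-type value was above every knockout value (log2 fold change -0.87, SE 0.408, limma adjusted p = 0.434). 4732440D04Rik beside Rb1cc1, a scaffold of autophagy, had 0.354, 1.75, 0.143 and 1.08 FPKM in the knockout samples 2, 3, 4 and 5, against 1.39, 0, 1.27, 2.04, 1.16 and 1.63 FPKM in the wild-type samples 1, 3, 4, 5, 6 and 7. Low and high values of 4732440D04Rik occurred in both genotypes.

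In the rest of this group knockout and wild type overlapped with smaller differences. 2810001G20Rik, whose promoter is printed above and which starts 18 bases from Cox10, an enzyme that makes the heme of cytochrome c oxidase, averaged 1.44 ± 0.688 FPKM in knockout and 1.88 ± 0.735 FPKM in wild type (SD, n = 4 and n = 6). D830024N08Rik in Tecr, of fatty acid elongation, averaged 1.11 ± 1.05 FPKM in knockout and 1.20 ± 0.276 FPKM in wild type, and 3 of its 4 knockout values were below every wild-type value while knockout sample 3, at 2.57 FPKM, was the highest of all. Gm17029 opposite Pex14, of peroxisomal import, had 1.15, 0.933, 1.05 and 1.04 FPKM in the knockout samples 2, 3, 4 and 5, against 1.20, 0.187, 1.16, 1.19, 1.62 and 1.50 FPKM in the wild-type samples 1, 3, 4, 5, 6 and 7, so wild-type sample 3 was the low one. 0610040B10Rik, 9 bases from the palmitoyltransferase gene Zdhhc4, had 1.25, 0.0785, 1.22 and 1.08 FPKM in the knockout samples 2, 3, 4 and 5, against 0.549, 1.41, 1.03, 0.966, 1.15 and 1.62 FPKM in the wild-type samples 1, 3, 4, 5, 6 and 7, and knockout sample 3 was the low one.

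Partners in signalling, matrix and cytoskeleton had 9 genes, of which 7 were lower in knockout (median -0.24) and 0 had an unadjusted limma p below 0.05 in either direction. Over all tested, 55.5% were lower, and at that p 8.56% were lower and 3.12% higher. Without knockout sample 5, 5 of the 9 were lower (53.9% of all tested). 6330403L08Rik (chromosome 5, 138995056 to 139000577, plus strand) starts 19 bases from Pdgfa, a growth factor for fibroblasts and smooth muscle. It had 5.52, 0, 4.18 and 3.06 FPKM in the knockout samples 2, 3, 4 and 5, against 4.40, 3.97, 3.78, 4.66, 4.48 and 4.81 FPKM in the wild-type samples 1, 3, 4, 5, 6 and 7. In wild type it was the steadiest of the 44 genes, and knockout sample 3 was listed at 0 in both of its transcripts, which share all but 1 base of length and nearly equal values. The difference (log2 fold change -0.64, SE 0.424, limma adjusted p = 0.610) came to -0.05 without that sample.

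Gm12002 (chromosome 11, 12314514 to 12351028, plus strand) lies in introns of Cobl, an actin nucleator, and had 3.72, 4.84, 4.25 and 3.34 FPKM in the knockout samples 2, 3, 4 and 5, against 4.00, 6.31, 4.86, 4.62, 7.08 and 7.38 FPKM in the wild-type samples 1, 3, 4, 5, 6 and 7. The 4 highest values were wild-type ones and the 2 lowest knockout ones, and the difference did not pass the threshold (log2 fold change -0.40, SE 0.188, limma adjusted p = 0.450, unadjusted 0.0588). 9530026P05Rik, which runs from inside the protease gene Adamts9, averaged 1.94 ± 0.833 FPKM in knockout and 2.82 ± 0.685 FPKM in wild type (SD, n = 4 and n = 6), and Gm32352, which overlaps introns of Wfdc1, a secreted protein, 1.42 ± 0.233 FPKM in knockout and 1.90 ± 0.513 FPKM in wild type. 1110046J04Rik, 28 bases from Serpinb6a, a protease inhibitor, had the largest positive fold change of the 44 genes, 0.44, with 2.24 ± 1.33 FPKM in knockout and 1.27 ± 0.380 FPKM in wild type. Its knockout sample 5 was at 4.11 FPKM and the others at 0.977 to 1.95 FPKM, and the fold change was 0.20 without it.

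Lower in level were Gm9917 beside Hyal2, a hyaluronidase, Gm13375 beside Arhgap21, a GTPase-activating protein, Gm31105 beside the docking protein gene Gab1 and Gm15972 beside Mapre2, a microtubule end binder. Gm9917 had 1.58, 1.68, 1.63 and 0.906 FPKM in the knockout samples 2, 3, 4 and 5, against 2.74, 1.49, 1.33, 0.792, 1.10 and 1.61 FPKM in the wild-type samples 1, 3, 4, 5, 6 and 7, and knockout sample 5 was apart from the other 3 of its group. Gm13375 had 0.898, 1.10, 0.792 and 0.425 FPKM in the knockout samples 2, 3, 4 and 5, against 1.38, 3.68, 0.384, 0.653, 0.635 and 1.18 FPKM in the wild-type samples 1, 3, 4, 5, 6 and 7, and wild-type sample 3 stood above all others. Gm31105 averaged 1.11 ± 0.577 FPKM in knockout and 1.04 ± 0.276 FPKM in wild type, and Gm15972 0.992 ± 0.693 FPKM in knockout and 1.08 ± 0.820 FPKM in wild type with its lowest value, 0.0381 FPKM, in knockout sample 5. For these 4 genes the genotypes overlapped throughout.

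The last 7 genes have partners of other or little known roles, or none, and 5 of them were lower in knockout (median -0.26). Of all tested 55.5% were. Without knockout sample 5, 6 of the 7 were lower (53.9% of all tested). Gm19461 (chromosome 1, 133250398 to 133269808, minus strand), antisense to Plekha6 with starts 337 bases apart, had 0.678, 0.883, 0.808 and 0.198 FPKM in the knockout samples 2, 3, 4 and 5, against 0.748, 1.35, 1.59, 1.03, 1.88 and 1.23 FPKM in the wild-type samples 1, 3, 4, 5, 6 and 7. Knockout samples 2 and 5 lay below every wild-type sample and knockout samples 3 and 4 within their range (log2 fold change -0.49, SE 0.188, limma adjusted p = 0.393, unadjusted 0.0239). 1810021B22Rik, with the CpG-rich promoter beside Trabd shown above, averaged 1.98 ± 1.01 FPKM in knockout and 2.63 ± 0.819 FPKM in wild type (SD, n = 4 and n = 6), and Gm47547 in Dydc2 2.24 ± 0.894 FPKM in knockout and 3.21 ± 1.84 FPKM in wild type. Gm26881 beside Fam214b had 0.956, 0.895, 1.93 and 1.02 FPKM in the knockout samples 2, 3, 4 and 5, against 1.10, 1.54, 1.17, 1.97, 0.915 and 1.15 FPKM in the wild-type samples 1, 3, 4, 5, 6 and 7, and knockout sample 4 was the high one of its group. Gm15941, which is antisense to 4930447A16Rik and on the strand of Ncald, had 0.908, 1.26, 1.34 and 0.815 FPKM in the knockout samples 2, 3, 4 and 5, against 1.75, 1.01, 0.879, 0.910, 0.616 and 0.922 FPKM in the wild-type samples 1, 3, 4, 5, 6 and 7, and wild-type sample 1 was the highest.

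The remaining 2 genes had values of 0. Gm15543 in Casc1 had 0, 1.63, 1.53 and 2.11 FPKM in the knockout samples 2, 3, 4 and 5, against 0, 1.46, 1.84, 1.79, 0.0993 and 1.60 FPKM in the wild-type samples 1, 3, 4, 5, 6 and 7. It was near 0 in knockout sample 2 and wild-type samples 1 and 6 and between 1.46 and 2.11 FPKM otherwise. Gm14286, the gene with no coding partner, had 0.707, 0, 0.411 and 2.91 FPKM in the knockout samples 2, 3, 4 and 5, against 0.851, 2.89, 1.20, 0, 0.608 and 2.30 FPKM in the wild-type samples 1, 3, 4, 5, 6 and 7, with a 0 in each genotype and its highest value in knockout sample 5.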

How the data were processed

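The deposited values are FPKM, one per transcript and sample. The authors depleted ribosomal RNA and made paired-end libraries with a digested second strand, per the labels' protocols, and used HISAT2 (version not given in the sources used here) on GRCm38 and StringTie 1.2.0 for FPKM, per the series' design text. Different kits and instruments are named without samples. No source says whether quantification used strand, and if it did not, overlapping genes on opposite strands share reads. HTSeq 0.6.1 counts named there were not used here.

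Transcript values were summed per gene of GENCODE M21 with pandas 2.3.3 in Python 3.11.15. Position was taken against protein-coding transcripts of coding genes only, a choice revised once after a first pass also counted other transcripts of those genes. Genotypes were compared over the 1122 genes and loci with a mean of at least 1 FPKM by limma 3.58.1 in R 4.3.3 on log2(FPKM + 1), with genotype as the only term, an intensity trend and Benjamini-Hochberg adjustment over all of them, two-sided. The fit was tested on simulated data with independent noise. Those data held no listed zeros and no differences shared by a whole library, so the test does not cover these. Depth was estimated from the steps of FPKM times length in genes of 1 exon and 1 transcript of over 600 bases, where 69.2% to 76.9% of low values per library came within 0.02 of a whole number of fragments, so no count test was run. Genes, partner roles and lists were chosen with earlier results of these data known, and promoter windows were limited to starts within 250 bases after all 24 had been summarised.

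Of the 44 genes 42 are named, with their partner where there is one; the other 2 are not reported here, and stand only in counts over the 44 and over the position classes. Values per sample are given for the 6 highest means, for an unadjusted p below 0.05, for a sample flagged by Dixon's test and for genes with a value of 0 or at loci of muscle contraction among these, the last 2 chosen after the values were seen. Alternatives were other pseudocounts, filters and scalings, fits without the trend, robust or with array weights, a replicate block, a term for or restriction by Rmrp, other limits on the mean, and each sample left out.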

Additional observations from a re-analysis of the deposited data

Results flagged for a closer look

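Single samples stood apart from the rest of their genotype in 10 of the 88 groups of values checked (44 genes, 2 genotypes) by Dixon's test at its 95% critical value. Chance flags about 1 in 20 groups, or 4.4 here, if the groups are independent and their values normally distributed. Listed zeros, low FPKM and genes that share a library do not meet this, so the number is a rough guide only. Of the 10, 3 were in knockout sample 5, where Malat1 and Dnm3os were high. D830005E20Rik was at 1.41 FPKM there, against 4.17 to 4.51 FPKM in the other knockout samples. E130307A14Rik was at 5.06 FPKM in that sample, against 1.67 to 2.21 FPKM. Gm9917 was at 0.906 FPKM in it, against 1.58 to 1.68 FPKM. The part of that library's other differences in these values was not tested.

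In knockout sample 3, 0610040B10Rik was low at 0.0785 FPKM (1.08 to 1.25 FPKM in the other knockout samples), and Gm44949 was at 2.48 FPKM while the other knockout samples were listed at 0. In knockout sample 4, Gm26881 was at 1.93 FPKM, against 0.895 to 1.02 FPKM. In wild-type sample 6, C130080G10Rik was at 3.54 FPKM, against 25.3 to 33.2 FPKM in the other wild-type samples, and its log2 fold change was -0.91 without that sample. Wild-type sample 3 was high for Gm13375 at 3.68 FPKM (0.384 to 1.38 FPKM in the others) and low for Gm17029 at 0.187 FPKM (1.16 to 1.62 FPKM in the others). In wild-type sample 1, Gm15941 was at 1.75 FPKM, against 0.616 to 1.01 FPKM.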

How the results depend on the processing

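Over 25 alternatives of the fit, 0 of the 44 genes were called by limma, the smallest adjusted p ranging from 0.0995 (without wild-type sample 4) to 0.770 (no filter), and 1 to 10 genes had an unadjusted p below 0.05. The count of lower genes ranged from 28 (array weights, and samples with Rmrp above 0) to 40 (a common sum per sample, where all tested genes shifted to a median of -0.14 and the 44 to -0.35). Leaving out 1 sample gave 31 to 37 lower genes and medians of -0.29 to -0.12 (without knockout sample 5: 31 and -0.12). The median was -0.19 over 56 genes with those left out by name added, -0.41 with log2(FPKM + 0.1), -0.12 over 110 class genes at a mean of at least 0.5 FPKM and -0.38 over 15 at 2 FPKM or more; higher limits hold fewer genes. The sign of the log2 fold change differed from that of the unweighted fit of all samples in 9 of the 44 genes with array weights, 13 with Rmrp above 0 and 10 without knockout sample 5. A set of 12 named genes, those with the 6 highest means, an unadjusted p below 0.05 or a locus of muscle contraction, was followed under each alternative, and of these the ones that turned positive were C130080G10Rik with array weights (0.038; -0.91 to 0.32 with 1 sample left out), Gm26782 with array weights (0.019) and with Rmrp above 0 (0.037; -0.47 to 0.090 with 1 sample left out), and D830005E20Rik with array weights (0.083) and with Rmrp above 0 (0.086; -0.23 to 0.17 with 1 sample left out). The cause was not tested.

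Sample numbers 3, 4 and 5 occur in both genotypes. Deviations of same-numbered samples correlated at -0.16, 0.18 and 0.08 over genes. Such weak correlations cannot decide whether the numbers pair the samples. With a replicate block on these 6 samples 0 genes were called, 36 were lower and the median was -0.25, the same as without the block (chosen after seeing the data). Each number holds a sample of each genotype, so the block cannot change a fold change, and the equal count and median were fixed in advance. The count of lower genes was also added after seeing the data. Depth limits genes with few fragments: 9 of the 44 had a median of under 20.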
